A study of Mus musculus with 4 samples.

Results

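The receptor Csf1r, its ligands Csf1 and Il34, the chemokine receptors Cx3cr1 and Ccr2, and the tissue macrophage genes Lyve1, Mrc1, Folr2 and Timd4 were followed across the cells of mouse embryonic heart ventricles. These 9 genes were matched by symbol, each on 1 row, among the 55405 genes of the count matrices. Single cells were profiled with 10x Genomics 3′ counting of UMIs (unique molecular identifiers, 1 per captured transcript) at E12.5 in 4 libraries. The group called KO had 2 floxed Gata4 alleles (Gata4fl/fl), and its control, called het, had 1 floxed allele beside a normal one (Gata4fl/+), with 2 libraries each. All embryos of both groups also carried the Rosa26 mTmG reporter and a tamoxifen-inducible Cre (Cdh5(Pac)-CreER), and tamoxifen was given at E9.5. The Cdh5 driver is endothelial, and macrophages are not its intended target. Whether Cre also acted in macrophages or other blood cells was not tested. The labels name the 10x kit in 2 ways, as 3′ v2 and as Next GEM, and a library may be 1 embryo or a pool, which the labels leave unstated. KO 1, KO 2, het 1 and het 2 below are the libraries under their labels and replicate numbers.

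Csf1r is the tyrosine kinase receptor that macrophages need for survival and proliferation, and Csf1 and Il34 are its ligands, made by neighbouring cells. Heart macrophages at this stage come largely from yolk sac and fetal liver precursors, and macrophages seeded early in life are known for Lyve1, Mrc1, Folr2 and Timd4, while Ccr2 marks monocytes and cells recently derived from them. Lyve1 is a hyaluronan receptor also found on lymphatic and some embryonic endothelium, Mrc1 is the mannose receptor CD206, Folr2 is folate receptor beta, and Timd4 binds phosphatidylserine on dying cells. Cx3cr1 is the receptor of the chemokine Cx3cl1, and Ccr2 that of Ccl2 and related chemokines.

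The promoters of 3 macrophage genes that are described together below, and of the ligand Csf1, show how different their start regions are. They run from 250 bases before to 50 after the start site, were taken from RefSeq (GRCm38.p6), and are written 5′ to 3′ on the gene's strand. Capitals mark the letters GAGGAA, the core bound by the myeloid factor PU.1 (Spi1), or TTCCTC, the same letters on the other strand. Overlap with other motifs was not examined. Promoters of 6 of the 9 genes were searched, and Csf1r was left out of the search.
Mrc1, chr2:14229164-14229463, plus strand: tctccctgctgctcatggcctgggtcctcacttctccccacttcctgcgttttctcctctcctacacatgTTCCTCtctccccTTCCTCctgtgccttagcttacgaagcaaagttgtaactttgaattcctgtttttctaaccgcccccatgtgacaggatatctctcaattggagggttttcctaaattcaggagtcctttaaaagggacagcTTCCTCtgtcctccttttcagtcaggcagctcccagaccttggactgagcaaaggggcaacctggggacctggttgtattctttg
Folr2, chr7:101857141-101857440, minus strand: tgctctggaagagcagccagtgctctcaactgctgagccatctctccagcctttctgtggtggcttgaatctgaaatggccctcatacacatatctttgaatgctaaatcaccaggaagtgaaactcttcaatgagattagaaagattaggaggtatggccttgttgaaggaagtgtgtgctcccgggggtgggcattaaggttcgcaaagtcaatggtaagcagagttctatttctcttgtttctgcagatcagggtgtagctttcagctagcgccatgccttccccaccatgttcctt
Timd4, chr11:46810549-46810848, plus strand: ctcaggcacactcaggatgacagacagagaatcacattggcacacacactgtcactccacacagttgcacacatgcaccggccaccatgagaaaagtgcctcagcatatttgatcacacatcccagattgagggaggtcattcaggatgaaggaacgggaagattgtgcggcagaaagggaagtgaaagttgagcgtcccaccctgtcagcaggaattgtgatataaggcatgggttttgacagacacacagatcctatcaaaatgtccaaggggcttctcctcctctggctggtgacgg
Csf1, chr3:107760420-107760719, minus strand: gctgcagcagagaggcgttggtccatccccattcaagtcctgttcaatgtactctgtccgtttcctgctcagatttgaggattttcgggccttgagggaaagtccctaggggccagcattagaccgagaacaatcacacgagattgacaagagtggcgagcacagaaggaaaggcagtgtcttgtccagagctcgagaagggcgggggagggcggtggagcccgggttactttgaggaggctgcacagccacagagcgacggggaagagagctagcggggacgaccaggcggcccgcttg
Mrc1 had 3 matches, all on the reverse strand, at 180, 167 and 35 bases before the start site. The other promoters searched, which did not include that of Csf1r, had 0 matches. Of 32851 promoters of this length, 9289 (28.3%) held at least 1, and a match is a description of letters, not of binding.

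In GRCm38 with the GENCODE M21 annotation, all 9 are protein-coding genes. Csf1r lies on chromosome 18 from 61100598 to 61132149 on the plus strand, Csf1 on chromosome 3 from 107741048 to 107760469 on the minus strand, and Il34 on chromosome 8 from 110741829 to 110805924 on the minus strand. Cx3cr1 (119901616 to 120069879, minus strand) and Ccr2 (124101950 to 124113557, plus strand) share chromosome 9. Lyve1 (110850607 to 110863239) and Folr2 (101839988 to 101857194) are both on the minus strand of chromosome 7, Mrc1 on the plus strand of chromosome 2 from 14229392 to 14332057, and Timd4 on the plus strand of chromosome 11 from 46810800 to 46844332.

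The libraries held 171252072 and 137890971 UMIs in KO 1 and KO 2, and 156491597 and 190207638 in het 1 and het 2. After filters and doublet removal 13522, 6785, 22474 and 9938 cells were kept in that order, 52719 in all, and pairs of libraries shared 14 to 93 barcodes. Het 1 stood apart: 66.7% of its cells lay in unnamed clusters, against 22.9%, 23.9% and 20.5% in KO 1, KO 2 and het 2, and its median was 4166 UMIs per cell, against 7087, 12329 and 14048. Gata4 in endothelial-like cells was at 169 and 158 CPM in the libraries labelled KO and 90.4 and 81.0 in those labelled het. These are 3′ UMI counts and the labels do not give the deleted part, so the Gata4 level does not check the labels.

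Macrophages were recognised without any of the 9 genes, which were left out of the clustering and of the marker lists. The macrophage-like cluster held 827 cells (328 and 96 in KO 1 and KO 2, 195 and 208 in het 1 and het 2) and was led by F13a1, C1qb, Fcer1g, C1qc, C1qa and Tyrobp. All 12 macrophage markers were detected in it in every library. Ptprc, the pan-leukocyte antigen CD45, was at 196 and 211 CPM in KO and 218 and 227 in het, against 3.08 to 4.38 CPM in the other named cells together. Adgre1, the macrophage antigen F4/80, was at 235 and 216 CPM in KO and 215 and 191 in het, against 0.294 to 1.16 CPM elsewhere. A second cluster of 2860 cells had the same leading genes, but 2.77% of its UMIs came from cardiomyocyte markers, against 0.188% in the macrophage-like cluster. It held 130 and 15 cells in KO and 2646 and 69 in het, so it was almost wholly het 1, and it was left unnamed. Further unnamed clusters of 495, 163, 109, 63 and 37 cells, mostly of het 1, also matched the macrophage list best. Of all cells with at least 5 of the 12 markers and cardiomyocyte markers under 1% of UMIs, 65.4% lay in the macrophage-like cluster. The values below leave out the rest.

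Macrophage-like cells were 2.43% (95% Wilson interval 2.18 to 2.70) and 1.41% (1.16 to 1.73) of kept cells in KO 1 and KO 2, and 0.868% (0.755 to 0.998) and 2.09% (1.83 to 2.39) in het 1 and het 2. The intervals cover counting error only. The groups overlapped, and the mean was 0.440 percentage points higher in KO than in het (two-sided exact permutation p = 0.667, where the smallest possible with 2 libraries against 2 is 0.3333). Over cells in named clusters only, the shares were 3.15% and 1.86% in KO and 2.60% and 2.63% in het, and the difference turned to -0.115 points. With the unnamed second cluster added it was -5.20 points, without KO 1 -0.065 and without het 1 -0.173, so no direction can be given. EGFP, which the reporter makes only after Cre has acted, was seen in 24.6% and 12.9% of macrophage-like cells in KO and 22.7% and 17.3% in het when every cell was thinned to 2000 UMIs. The share was 12.6% and 7.20% in KO and 21.2% and 8.60% in het in cardiomyocyte-like cells, which are not the target of the driver, and 79.7% to 89.2% in endothelial-like cells.

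Csf1, the main ligand of Csf1r, was highest in epicardial-like cells, the outer lining of the heart. Levels are given as CPM, the usual library-scaled unit, from the UMIs of a gene and all UMIs summed over the cells of a class in a library. The epicardial-like class held 325 and 145 cells in KO and 80 and 194 in het, and was led by Upk3b, Krt7 and Aldh1a2. Its Csf1 level was 95.8 and 84.2 CPM in KO 1 and KO 2 and 84.3 and 62.9 CPM in het 1 and het 2. Mesenchymal-like cells had 20.7 and 19.0 CPM in KO and 21.5 and 17.6 in het, and endothelial-like cells 16.4 and 19.9 in KO and 15.9 and 17.5 in het. The lowest epicardial library was thus above the highest library of every other class, while mesenchymal-, endothelial- and macrophage-like cells overlapped one another. Macrophage-like cells had 12.2 and 6.67 CPM of Csf1 in KO and 10.8 and 18.3 in het, and cardiomyocyte-like cells 1.56 to 3.14 CPM.

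Within the mesenchymal and endothelial classes Csf1 was uneven. The mesenchymal cluster led by Spon2, Col14a1 and Dcn, with the epicardial derivative marker Tcf21 among its leading genes, had 29.7 and 24.8 CPM in KO and 28.6 and 23.9 in het. The mesenchymal clusters led by Sfrp2 and Postn and by Postn and Car3 reached at most 17.2 CPM in any library. A further small mesenchymal cluster of 147 cells, led by Postn and Dnm3os, held 54 and 31 cells in KO and 3 and 59 in het. It was not compared here. Among endothelial-like cells, the cluster led by Plvap and Emcn, with the endocardial gene Npr3, had 19.9 and 22.7 CPM in KO and 19.4 and 19.6 in het. The cluster led by Fabp4, with Cldn5, had 7.27 and 8.61 CPM in KO and 9.52 and 12.3 in het, below the first in each library. Mesenchymal-like cells supplied 25.8% and 37.3% of the Csf1 UMIs of named cells in KO and 35.7% and 35.6% in het, next to 48.3% and 37.3% in KO and 22.7% and 26.5% in het from epicardial-like cells. Over all kept cells of het 1, unnamed clusters held 54.6% of the Csf1 UMIs, mesenchymal-like cells 16.2% and epicardial-like cells 10.3%. Endothelial-like cells supplied 13.4% and 19.9% in KO and 18.4% and 21.7% in het.

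Il34, the second ligand, was scarce. Epicardial-like cells held 10 and 10 UMIs in KO and 4 and 7 in het, or 1.10 and 1.45 CPM in KO and 2.09 and 0.946 CPM in het. Mesenchymal-like cells were at 0.267 and 0.294 CPM in KO and 0.679 and 0.281 in het, and endothelial-like cells at 0.0920 to 0.135 CPM. Although the counts were small, every epicardial library lay above every mesenchymal library, and every mesenchymal library above every endothelial one. No macrophage-like cell held an Il34 UMI, and a count of 0 allows up to 0.398 and 0.690 CPM in KO 1 and KO 2 and 0.673 and 0.468 CPM in het 1 and het 2. Ptprz1, a phosphatase known as another receptor of IL-34, was also highest in epicardial-like cells, at 71.8 and 66.5 CPM in KO and 48.7 and 42.5 in het, against 4.18 to 8.34 CPM in mesenchymal-like cells. Sdc1, a proteoglycan also known to bind IL-34, was instead highest in mesenchymal-like cells (57.5 and 57.4 CPM in KO, 54.9 and 48.5 in het) and endothelial-like cells (42.5 and 46.0 in KO, 56.0 and 47.0 in het), which overlapped, and lower in epicardial-like cells at 21.4 to 28.8 CPM. The class with the highest mean level was the same for all 9 genes without het 1.

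**Figure D1:**
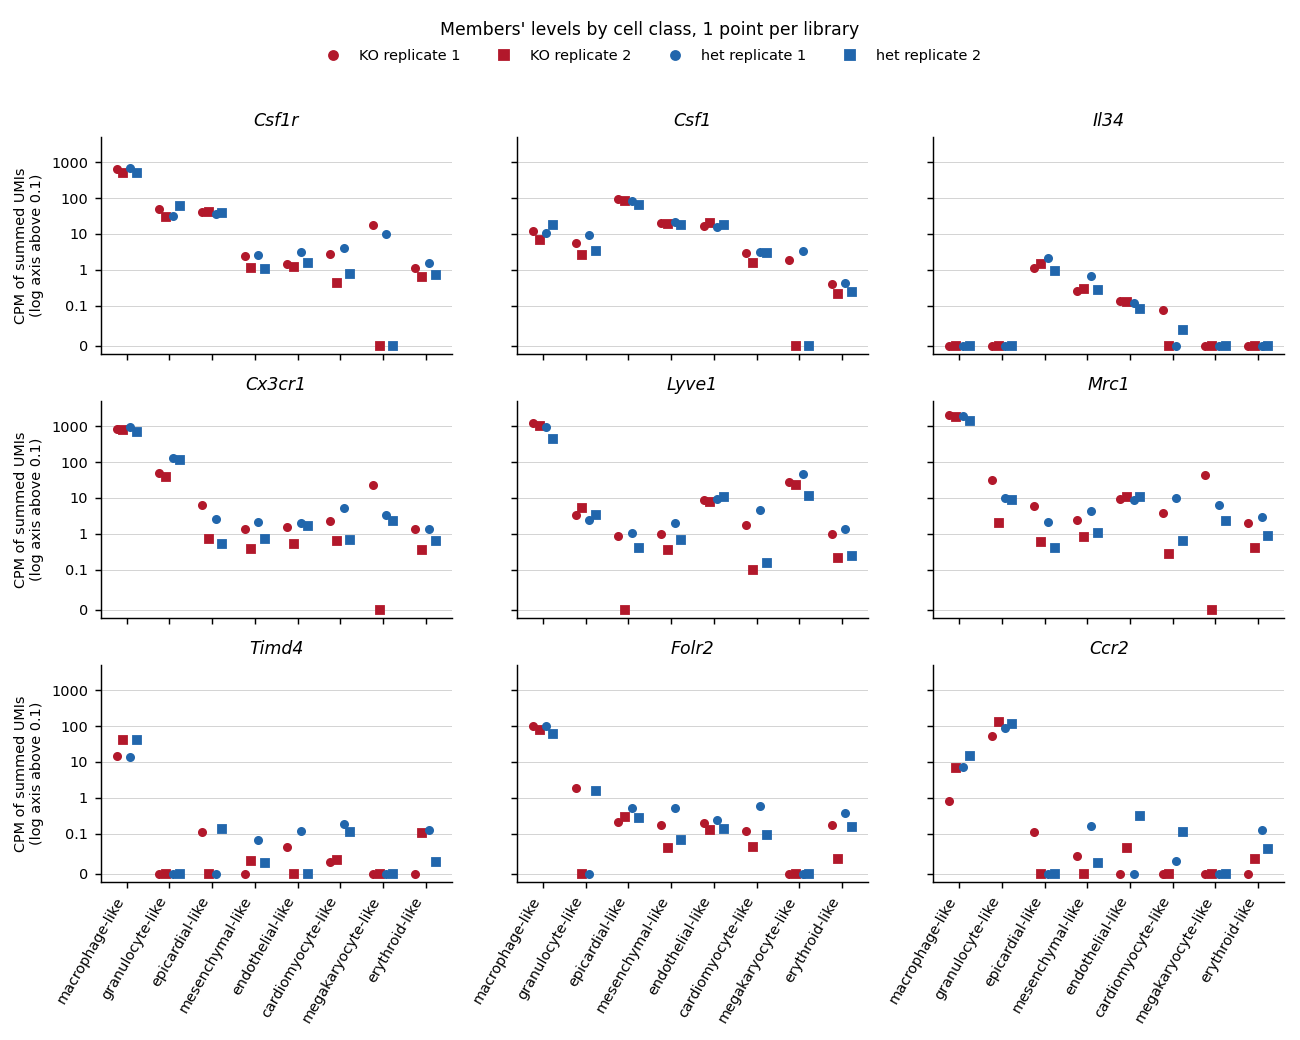
Level of each of the 9 genes in 8 cell classes, as CPM of summed UMIs on an axis that is logarithmic above 0.1; each point is 1 library (circle, replicate 1; square, replicate 2), KO in red and het in blue. Csf1 and Il34 are highest in epicardial-like cells, Ccr2 in granulocyte-like cells and the other 6 genes in macrophage-like cells, and Csf1r has a second level of 35.6 to 42.0 CPM in epicardial-like cells.

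The receptor itself was at 639 and 507 CPM in macrophage-like cells of KO 1 and KO 2 and at 676 and 512 CPM in those of het 1 and het 2. These cells held 87.1% and 84.0% of the Csf1r UMIs of named cells in KO and 90.6% and 85.0% in het. Of the Csf1r UMIs of all kept cells they held 83.8% and 83.0% in KO and 49.7% and 82.0% in het, and unnamed clusters held 45.2% in het 1. When each cell was thinned to 10000 UMIs, which kept 291 and 83 macrophage-like cells in KO and 135 and 199 in het, Csf1r was seen in 98.3% and 98.8% of cells in KO and 98.5% and 96.5% in het. Few cells of the cluster lacked the receptor, with a median of 6 and 5 UMIs per cell in KO and 7 and 5 in het.

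Epicardial-like cells also held Csf1r. Their level was 39.96 and 42.0 CPM in KO 1 and KO 2 and 35.6 and 39.3 CPM in het 1 and het 2, from 364, 290, 68 and 291 UMIs. At least 1 UMI was present in 49.8% and 72.4% of epicardial-like cells in KO and 42.5% and 54.6% in het. Mesenchymal-, endothelial- and cardiomyocyte-like cells were at 0.441 to 4.02 CPM, so the lowest epicardial library lay above the highest of theirs. Granulocyte-like cells, at 48.1 and 30.02 CPM in KO and 32.3 and 58.8 in het, overlapped the epicardial level. With each cell thinned to 2000 UMIs, Csf1r was seen in 6.48% and 8.28% of epicardial-like cells in KO, in 10 of 80 in het 1 and in 9.28% in het 2, against 0.800% and 0.200% in KO and 1.10% and 0% in het of 1000 sampled cardiomyocyte-like cells a library, which should lack the gene (0 of 1000 cells allows up to 0.3%). The median UMI count per cell before thinning was 19076 and 32407 in KO and 18370 and 20211 in het for epicardial-like cells, and 5679.5 and 7617 in KO and 4267 and 13944 in het for the sampled cardiomyocyte-like cells.

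Other macrophage transcripts were not there in like measure. As a share of the level in macrophage-like cells of the same library, epicardial Csf1r stood at 6.25% and 8.29% in KO and 5.26% and 7.68% in het, while the median of the 12 macrophage markers stood at 0.282% and 0.0572% in KO and 0.125% and 0.0747% in het. The highest of the 12 markers in any library reached 1.09%. The 12 together took 0.00251% and 0.000623% of epicardial UMIs in KO and 0.00110% and 0.000933% in het, with 0 and 1 of the 12 at 0 in KO and 3 and 1 in het. Of the epicardial-like cells with Csf1r, 90.1% and 93.3% in KO and 100% and 90.6% in het held fewer than 2 of the 12 markers. Of those without Csf1r, 98.2% and 100% in KO and 97.8% and 98.9% in het did. The share was thus lower with Csf1r in KO 1, KO 2 and het 2. Cells with Csf1r were also deeper, as given below, and the part of depth in this was not tested. With the cells that held 2 or more taken out, Csf1r was at 38.6 and 42.2 CPM in KO and 35.9 and 37.9 in het, nearly as before. Cx3cr1 behaved otherwise in KO 1 only, where it was at 0.758 CPM (6 UMIs) without those cells and at 6.48 CPM (59 UMIs) with them. In KO 2, het 1 and het 2 it had just 5, 5 and 4 UMIs in epicardial-like cells, and all of them stayed.

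Some signalling genes that accompany the receptor in macrophages were near 0 in epicardial-like cells, and others were not. Spi1, the myeloid factor PU.1, was at 0.145 to 0.659 CPM there and at 280 to 364 CPM in macrophage-like cells, and Vav1, a signalling adaptor of blood cells, at 0 to 0.220 against 66.3 to 80.9. Well detected there were Stat3 (42.2 and 58.3 CPM in KO, 46.0 and 42.5 in het), Cbl, the ubiquitin ligase that turns the receptor over (46.9 and 49.9 in KO, 43.4 and 39.5 in het), and the factor Maf (272 and 366 in KO, 320 and 257 in het). Pdgfrb, the gene next to Csf1r on the chromosome, was no guide to the receptor either. It was at 154 and 123 CPM in KO and 143 and 112.3 in het in mesenchymal-like cells, where Csf1r was at 1.04 to 2.55, and at 15.7 to 22.5 CPM in epicardial-like cells. Ligand and receptor met in the same epicardial cells: 39.4% and 57.9% in KO and 28.8% and 40.2% in het held UMIs of both Csf1 and Csf1r. Csf1 was seen in 79.0% and 80.0% of Csf1r-positive epicardial cells in KO and 67.6% and 73.6% in het, against 57.7% and 75.0% of the others in KO and 65.2% and 46.6% in het. The Csf1r-positive cells were also deeper, with medians of 29159 and 36902 UMIs in KO and 19015 and 32090 in het, against 15195, 28427, 17555 and 16887, and at 10000 UMIs the shares with Csf1 were 49.7% and 47.1% as means over libraries.

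**Figure D2:**
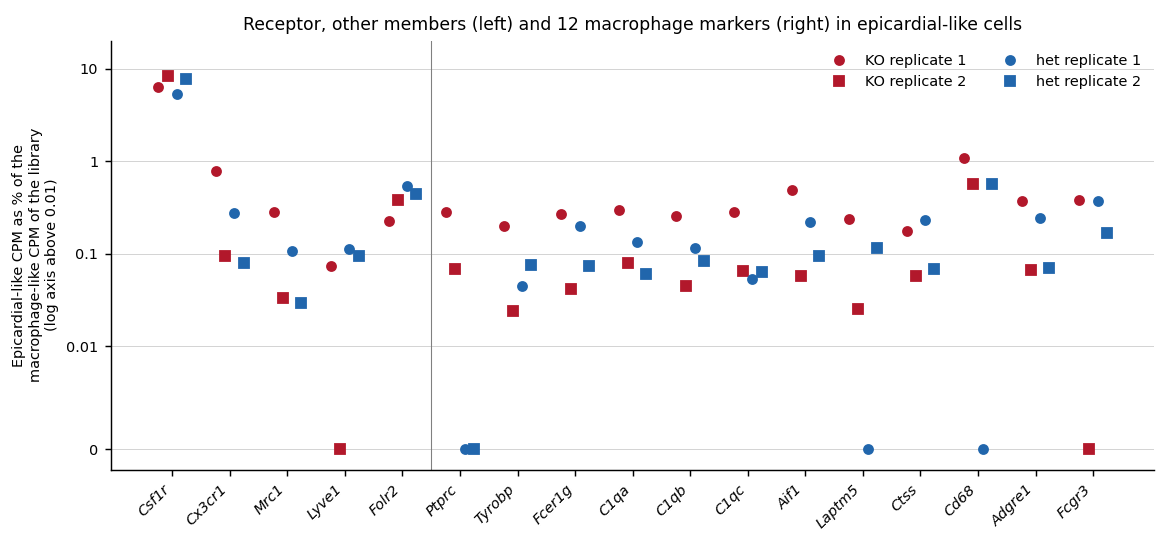
Level in epicardial-like cells as a percentage of the level in macrophage-like cells of the same library (axis logarithmic above 0.01), for 5 of the 9 genes on the left and the 12 macrophage markers on the right; each point is 1 library, KO in red and het in blue. Csf1r lies between 5.26% and 8.29% in all 4 libraries, above every marker, none of which passes 1.09%.

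Cx3cr1, the fractalkine receptor, was at 834 and 759 CPM in macrophage-like cells of KO and at 962 and 690 CPM in those of het, and like Csf1r was seen in nearly every cell there (97.9% and 98.8% of cells in KO, 97.8% and 97.5% in het at 10000 UMIs). Granulocyte-like cells came next at 50.4 and 38.7 CPM in KO and 127 and 112.2 in het. Its ligand Cx3cl1 was low in every named class, at 1.22 to 3.89 CPM in endothelial-like and 1.72 to 3.73 CPM in cardiomyocyte-like cells.

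Ccr2, the monocyte chemokine receptor, was largely lacking in macrophages. Macrophage-like cells had 0.796 and 6.90 CPM in KO and 7.40 and 14.99 CPM in het, from 6, 30, 33 and 96 UMIs. At 10000 UMIs it was seen in 0.687% and 3.61% of them in KO and 2.96% and 5.53% in het. The class with Ccr2 was the granulocyte-like one, of 84 and 38 cells in KO and 207 and 90 in het, led by S100a9, S100a8 and Camp, with the myeloid progenitor enzymes Mpo and Prtn3. It had 54.2 and 127 CPM in KO and 88.6 and 111 CPM in het, above every other class in each library, and held 93.5% and 85.6% of the Ccr2 UMIs of named cells in KO and 73.8% and 72.3% in het. Over all kept cells of het 1 it held 44.8% of them, and unnamed clusters 39.3%. In het 1 this class was shallow, with a median of 3753 UMIs per cell against 26402, 42634 and 28078 in KO 1, KO 2 and het 2.

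The Ccr2-positive cells of that cluster, 20 and 15 in KO and 15 and 46 in het, differed from its other cells in both receptors. Csf1r was at 96.9 and 60.2 CPM in them in KO and at 135 and 94.9 in het, against 27.3, 9.98, 8.19 and 21.7 CPM in the cells without Ccr2 of KO 1, KO 2, het 1 and het 2. Cx3cr1 was at 64.1 and 93.7 CPM in KO and 348 and 165 in het, against 44.6, 2.22, 74.7 and 58.1. Both receptors were higher with Ccr2 in 4 of 4 libraries. Median depth was 30432 and 45862 UMIs in the Ccr2-positive cells of KO and 16264 and 25630 in those of het, against 23198 and 41756 in the other cells of KO and 3708 and 30481 in those of het, and the part of depth was not tested. The 10 granulocyte markers together took 0.350% and 0.958% of UMIs in the Ccr2-positive cells in KO and 0.0934% and 0.207% in het, against 0.801%, 5.37%, 1.38% and 1.94% in the cells without it. The monocyte and inflammatory list took 0.227% and 0.308% of UMIs with Ccr2 in KO and 0.176% and 0.219% in het, against 0.143%, 0.406%, 0.163% and 0.238% without it, so it was higher with Ccr2 in KO 1 and het 1 and lower in KO 2 and het 2. Mpo, the progenitor enzyme, went the same ways. Mrc1 stayed at or below 6.25 CPM and Lyve1 at or below 1.56 CPM in the Ccr2-positive cells of all 4 libraries. EGFP was seen, at 2000 UMIs, in 53.0% and 31.6% of granulocyte-like cells in KO and 27.4% and 58.0% in het, above the share in macrophage-like cells of the same library in all 4.

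The chemokines that Ccr2 binds were highest in macrophage-like cells. Ccl2 was at 166 and 222 CPM in macrophage-like cells of KO and 169 and 206 in het, against 47.1 to 72.9 in endothelial-like and 23.5 to 40.4 in mesenchymal-like cells. Ccl12 was at 72.0 and 143 CPM in KO and 84.1 and 140 in het, and Ccl7 at 31.4 and 45.5 in KO and 30.9 and 56.7 in het. All 3 had their highest level in macrophage-like cells in every library.

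Mrc1 had the most UMIs of the 9 genes, which a 3′ assay counts once per transcript. It was at 2094 and 1736 CPM in macrophage-like cells of KO and 1956 and 1387 in those of het, and at 10000 UMIs was seen in 97.6% and 97.6% of cells in KO and 91.9% and 90.5% in het. Endothelial-like cells had 9.49 and 10.8 CPM in KO and 8.90 and 10.4 in het, a level that other classes reached in some libraries: granulocyte-like cells had 30.8 and 2.001 CPM in KO and 9.94 and 8.78 in het, and cardiomyocyte-like cells 3.92 and 0.271 in KO and 9.97 and 0.618 in het. Folr2 was at 97.8 and 75.6 CPM in macrophage-like cells of KO and 97.8 and 61.7 in het, and at most 1.87 CPM in any other named class. Timd4 was at 14.99 and 40.5 CPM in KO and 13.9 and 41.5 in het, and no other named class passed 0.194 CPM. Its level went with the replicate number and not with the group, being high in both replicates 2.

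Lyve1 was uneven among the macrophages. It was at 1190.3 and 979 CPM in macrophage-like cells of KO and 921 and 432 in het, yet at 10000 UMIs 35.4% and 48.2% of cells in KO and 48.1% and 62.8% in het held none of it. At the same depth 54.0% and 41.0% of cells in KO and 39.3% and 21.6% in het held 5 or more, and 10.7% and 10.8% in KO and 12.6% and 15.6% in het held 1 to 4. Cells with no Lyve1 and cells with 5 or more UMIs were both common in each library. These bins are unequal in width, as the highest cells had 67 and 64 UMIs in KO and 50 and 43 in het. Whether the cells form separate groups was not tested. Csf1r and Mrc1 were missing from fewer cells: at most 9.55% of cells in any library lacked either gene. Outside macrophages Lyve1 was at 27.0 and 22.7 CPM in megakaryocyte-like cells of KO and 45.9 and 11.1 in those of het, and at 7.60 to 10.9 CPM in endothelial-like cells. Folr2 was seen in 51.2% and 45.8% of macrophage-like cells in KO and 46.7% and 32.2% in het, and Timd4 in 7.90% and 15.7% in KO and 8.89% and 17.1% in het.

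**Figure D3:**
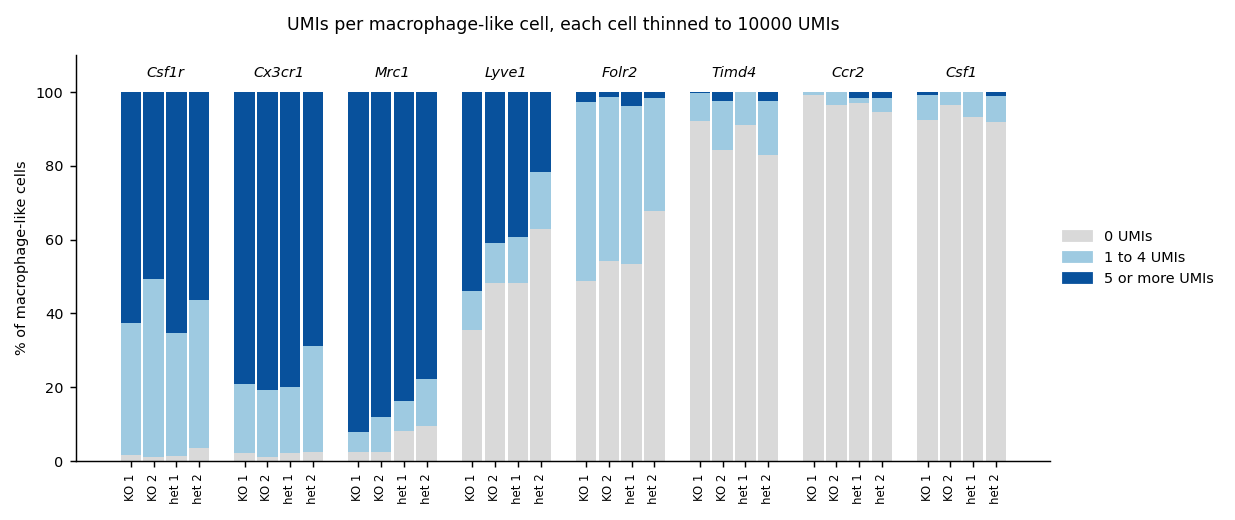
Share of macrophage-like cells with 0 (grey), 1 to 4 (light blue) and 5 or more UMIs (dark blue) of each gene after thinning each cell to 10000 UMIs, for KO 1, KO 2, het 1 and het 2. Lyve1 has many cells with none and many with 5 or more in each library, while Csf1r, Cx3cr1 and Mrc1 are missing from few cells and Timd4 and Ccr2 from most.

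Cells with Lyve1 also carried more Mrc1 and Folr2. At 10000 UMIs there were 188 and 43 cells with Lyve1 in KO and 70 and 74 in het, and 103, 40, 65 and 125 without it in KO 1, KO 2, het 1 and het 2. Mrc1 was at 2626 and 2105 CPM in the cells with Lyve1 in KO and at 2500.0 and 2051 in het, against 1148 and 1288 in the cells without it in KO and 1080.0 and 1019 in het. Folr2 was at 117 and 123 CPM with Lyve1 in KO and 166 and 154 in het, against 81.6 and 52.5 without it in KO and 38.5 and 22.4 in het. Both were higher with Lyve1 in 4 of 4 libraries, by log2 0.71 to 1.21 for Mrc1 and 0.52 to 2.76 for Folr2. Cx3cr1 differed in no fixed direction (log2 -0.23 to 0.10), and Csf1r was slightly lower with Lyve1 in 4 of 4 libraries (log2 -0.35 to -0.06). These are descriptions of cells that share a library, without a test.

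Beyond the 9 genes, Lyve1 cells differed in genes of several kinds. Of 5387 genes with enough UMIs, 636 were higher and 637 lower with Lyve1 in all 4 libraries. The genes with the steadiest excess were Gfra2, a receptor of the neurturin family, at 61.7 and 46.5 CPM with Lyve1 in KO and 27.1 and 29.7 in het against 10.7, 15, 4.62 and 11.2 without, the factor XIII subunit F13a1, the endothelin receptor Ednrb, the ectoenzyme Cd38 and Igfbp4. Those most steadily lower were the chemokine Cxcl16, at 3.19 and 16.3 CPM with Lyve1 in KO and 8.57 and 8.11 in het against 68.9, 90, 55.4 and 44 without, then Fam129a, Creb5, the inhibitory collagen receptor Lair1 and the G protein regulator Rgs1. Of the resident macrophage list, 13 genes had enough UMIs and 6 were higher in all 4 libraries (F13a1, Gas6, Stab1, Pf4, Ninj1 and Ccl24), with Id3 lower. Of 14 mitotic genes, 5 (Top2a, Mki67, Tpx2, Bub1 and Plk1) were lower in all 4 and 0 higher. At the shallower 2000 UMIs, F13a1, Mrc1, Pf4, the scavenger receptor Colec12 and Igfbp4 led the excess, and Lsp1, Lgals3, Hmox1, Apobec1 and Id2 the deficit. Cells with Cx3cr1 at that depth had more Csf1r in 4 of 4 libraries (log2 0.41 to 0.92), with Dpm2, Prc1, Rhob, Jun and Ctcf leading the excess and Fn1, Nop10, Mrpl41, Pclaf and Evi2a the deficit. Cells with Ccr2 numbered only 1 and 1 in KO and 4 and 6 in het there, too few to describe.

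Folr2 picked out a related but not identical set of cells, 149 and 38 in KO and 63 and 64 in het. Lyve1 was at 1477 and 1500.0 CPM in the cells with Folr2 in KO and 1273 and 695 in het, against 914 and 718 without Folr2 in KO and 494 and 231 in het. Timd4 was at 18.1 and 81.6 CPM with Folr2 in KO and 19.0 and 53.1 in het, against 9.15, 17.8, 11.1 and 34.1 without it in KO 1, KO 2, het 1 and het 2. Lyve1, Mrc1 and Timd4 were each higher with Folr2 in 4 of 4 libraries. Of the 5387 genes, 647 were higher and 881 lower with Folr2 in all 4 libraries. Higher in all 4 were 11 of 13 resident macrophage genes, among them the scavenger receptor Stab1, the iron exporter Slc40a1, Igf1 and Apoe, and 12 of 18 phagocytosis and lysosome genes, among them the complement genes C1qa, C1qb and C1qc and the clearance receptor Mertk. So were 4 of 19 signalling, 3 of 7 monocyte and inflammatory and 5 of 9 microglia and embryonic macrophage genes. Of the 14 mitotic genes, 8 were lower in all 4 libraries. Lysozyme (Lyz2) was at 1084 and 805 CPM with Folr2 in KO and 954 and 1291 in het, against 619.7 and 447 without it in KO and 469 and 376 in het. Lbp, Ddx60, Tbc1d4 and Gfra2 were the other genes with the steadiest excess.

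Cells with Timd4 were not those with the most Lyve1. At 10000 UMIs there were 23 and 13 cells with Timd4 in KO and 12 and 34 in het. Folr2 was at 126 and 154 CPM in them in KO and 225 and 147 in het, against 102.6 and 77.1 in the cells without Timd4 in KO and 92.7 and 55.8 in het. Lyve1, in contrast, was at 896 and 185 CPM with Timd4 in KO and 833 and 341 in het, against 1229 and 1241 without it in KO and 860.2 and 388 in het. Folr2 and Csf1r were higher and Lyve1 lower with Timd4 in 4 of 4 libraries, with the gap in Lyve1 small in het. At 2000 UMIs, where 9 and 8 cells in KO and 4 and 10 in het held Timd4, Csf1r was higher in 2 of 4 libraries and Lyve1 lower in 3 of 4, and Crip1, Lpl, Ifitm3, H2-D1 and Slc40a1 led the excess. The regulator Id3 was at 183 and 277 CPM with Timd4 in KO and 233 and 265 in het, against 35.8, 57.1, 61.8 and 72.7 without. The integrin Itgal, Abcg3, Axl, which like Timd4 serves the uptake of dying cells, and the lectin Fcna were the next steadiest, and osteopontin (Spp1) and the metallothionein Mt2 were lower. Of the 5387 genes, 703 were higher and 387 lower with Timd4 in all 4 libraries. A small constant added to the UMIs of both sets raises the smaller set, here that with Timd4. These counts and those of the lists below therefore lean towards higher. Il34, with 0 UMIs in both sets, came out higher with Timd4 in 4 of 4 libraries (log2 2.28 to 3.54). Of the phagocytosis list 8 of 18 genes were higher in all 4, of the signalling list 7 of 19 higher and 1 lower, and of the resident macrophage list 3 of 13 higher. Of the microglia and embryonic macrophage list 2 of 9 were lower, and of the mitotic genes 8 of 14. Such small sets of cells leave these values uncertain. With cells split by Lyve1 instead, at 10000 UMIs, Timd4 was higher with Lyve1 in 2 of 4 libraries.

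**Figure D4:**
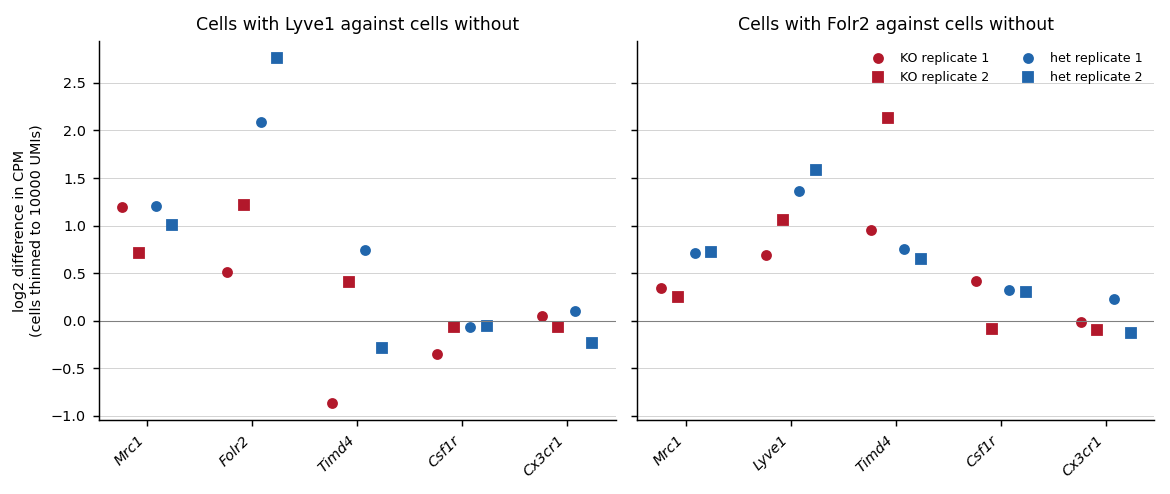
Difference in level (log2 of CPM) of 5 of the 9 genes between macrophage-like cells with and without Lyve1 (left) and with and without Folr2 (right), all cells thinned to 10000 UMIs; each point is 1 library, KO in red and het in blue. Mrc1 and Folr2 lie above 0 in 4 of 4 libraries on the left, and Mrc1, Lyve1 and Timd4 on the right, while Csf1r and Cx3cr1 lie between -0.35 and 0.41.

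Counts of cells gave the same picture of joint detection. At 2000 UMIs, Mrc1 was seen in 97.2% of the cells with Lyve1 and 71.5% of those without, and Folr2 in 24.6% and 11.9%, as means over the 4 libraries, each higher with Lyve1 in 4 of 4. At 10000 UMIs Folr2 was seen in 62.2% of the cells with Lyve1 and 26.8% of those without. Cells with all of Csf1r, Cx3cr1, Mrc1 and Lyve1 made up 62.9% and 50.6% of macrophage-like cells in KO and 51.1% and 35.7% in het. Cells with all of Timd4, Lyve1 and Folr2 were 2.41% and 6.02% in KO and 5.93% and 4.02% in het. Ccr2 went the other way, being seen in 3 of 375 cells with Lyve1 at that depth, although only 2 and 3 cells in KO and 4 and 11 in het carried Ccr2 at all. Among the granulocyte-like cells, 30 of the 45 cells with Csf1r also held Ccr2, and 28 of the 45 Cx3cr1.

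Across 6 classes and 4 libraries, giving 24 sums that share libraries and depth, the genes whose levels ran closest to Csf1r, Csf1, Il34 and Lyve1 were described by Pearson's r of log2(CPM + 1). Lyve1 ran closest to Mrc1 (r = 0.992), then Cyth4, Fgd2, Ltc4s and Pf4. Csf1r ran closest to the RNA-binding protein gene Rbm47 (r = 0.985), followed by Rab7b, Pmaip1, Slc7a8 and the kinase subunit gene Pik3cd. Csf1 ran closest to the kinesin gene Kifc3 (r = 0.979), then the immediate early gene Ier2, Sfxn3, Pgghg and Avl9. Il34 ran closest to Sorcs1 (r = 0.974), then Crym, Slc44a5, Wnt9a and Evpl. Its order is uncertain, as it rested on 31 UMIs in epicardial-like and 33 in mesenchymal-like cells, with 0 in macrophage-like cells. None of the genes nearest to Csf1 or Il34 was another of the 9.

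The libraries labelled KO were compared with those labelled het for these genes in macrophages and in their neighbours. In macrophage-like cells 8 of the 9 genes could be tested, Il34 having no UMI, and 0 of the 8 passed an adjusted p of 0.05. The background was the same: 0 of 11849 genes tested, 0%, were called by edgeR's quasi-likelihood test with Benjamini-Hochberg adjustment. Of these genes, 207 had an unadjusted p under 0.05 in that test. DESeq2 and limma-voom also called 0, while edgeR called 69 of 22173 genes without the filter on low counts and 10 with a replicate block. The receptor was at 635 and 515 CPM in KO and 650.4 and 528 in het after TMM scaling, a log2 difference of -0.03 (SE 0.184). Cx3cr1 differed by -0.03 (SE 0.178), Mrc1 by 0.22 (SE 0.188), Folr2 by 0.15 (SE 0.221) and Timd4 by -0.07 (SE 0.589). For these 5 genes the libraries of the groups overlapped, and the standard errors leave room for differences of either sign.

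Lyve1 and Ccr2 were the members whose groups did not overlap. Lyve1 was at 1181 and 995 CPM in KO and 886 and 445 in het, a log2 difference of 0.71 (SE 0.305, adjusted p = 0.9999 by edgeR's quasi-likelihood test with Benjamini-Hochberg adjustment). Ccr2 was at 0.790 and 7.01 CPM in KO and 7.12 and 15.4 in het, a log2 difference of -1.74 (SE 0.782, adjusted p = 0.9999 by the same test). Of all genes tested, 2835 of 11849, or 23.9%, had groups that did not overlap, so 2 of 8 members is close to that share. At 10000 UMIs Lyve1 was seen in 64.6% and 51.8% of cells in KO and 51.9% and 37.2% in het, so KO 2 and het 1 did not stand apart in the share of positive cells. The 10 granulocyte markers, of which 5, 3, 5 and 2 were at 0 in macrophage-like cells of KO 1, KO 2, het 1 and het 2, took 0.000637% and 0.00586% of UMIs in KO and 0.000381% and 0.0116% in het, highest in het 2 as Ccr2 was. Their part in the Ccr2 difference was not tested. Without het 1 both genes passed the test (adjusted p = 0.0327 for Lyve1 and 0.0419 for Ccr2 in edgeR with Benjamini-Hochberg adjustment), and so they did without the filter on low counts (0.0286 and 0.000197). Under the other alternatives neither passed. Over all alternatives, those included, the differences ranged from 0.30 to 1.29 for Lyve1 and from -3.83 to -0.57 for Ccr2. Csf1 in macrophages was at 12.1 and 6.78 CPM in KO and 10.4 and 18.8 in het, a log2 difference of -0.60 (SE 0.369) with overlapping groups, and from -1.12 without KO 1 to -0.09 without het 2.

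**Figure D5:**
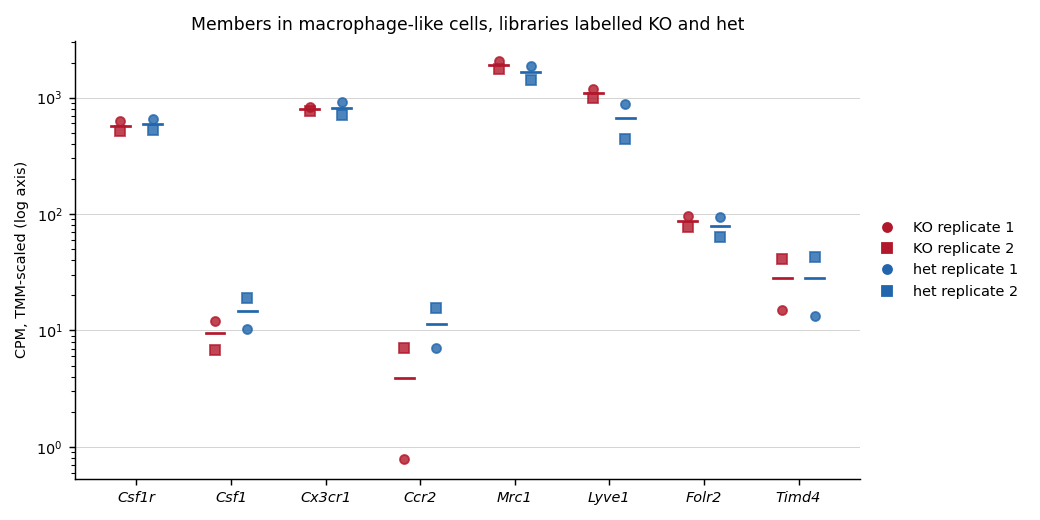
TMM-scaled CPM (log axis) of the 8 tested genes in macrophage-like cells, KO in red to the left of het in blue; points are libraries and bars the means of 2. Lyve1 lies higher and Ccr2 lower in both KO libraries than in both het libraries, and the groups overlap for the other 6 genes.

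In the other classes no tested member passed the threshold either. Epicardial-like Csf1 was at 92.8 and 87.7 CPM in KO and 79.0 and 66.4 in het, after TMM scaling, a log2 difference of 0.32 (SE 0.184, adjusted p = 0.9998 in edgeR with Benjamini-Hochberg adjustment). Before that scaling KO 2 and het 1 were level, at 84.2 and 84.3 CPM. Epicardial-like Csf1r was at 38.7 and 43.8 CPM in KO and 33.4 and 41.6 in het (log2 0.11, SE 0.196), and Il34 at 1.06 and 1.51 in KO and 1.96 and 1.0003 in het (log2 -0.03, SE 0.713). Csf1 differed by log2 0.03 (SE 0.153) in mesenchymal-like and 0.10 (SE 0.198) in endothelial-like cells. The other members tested in endothelial-like cells, all low there, had log2 differences of -0.73 (SE 0.456) for Csf1r, -0.86 (SE 0.547) for Cx3cr1, -0.32 (SE 0.207) for Lyve1 and 0.05 (SE 0.214) for Mrc1. In these cells Lyve1 had 8.53 and 7.85 CPM in KO and 8.98 and 11.3 in het. Over the 5 members the median was -0.32. The edgeR test called 0% of 13913, 16877, 14963 and 16104 genes in epicardial-, mesenchymal-, endothelial- and cardiomyocyte-like cells, with 229, 162, 606 and 230 at an unadjusted p under 0.05, and DESeq2 called 3, 1, 41 and 0.

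Around the 9 genes, no macrophage list held a gene past the threshold. Lists of related genes were counted in macrophage-like cells, and in each of the 8 lists 0 genes passed the adjusted threshold, beside a median log2 difference of 0.003 over all genes. Among 21 genes of Csf1r signalling and macrophage identity, all tested, 10 lay above 0 and 11 below, with a median of -0.03. Of 18 resident macrophage genes tested, 10 lay above 0, with Pf4 (log2 0.25), Ninj1 (-0.26), F13a1 (0.36) and Fcna (0.20) of lowest p. The resident list had a median of 0.04, as had the 18 phagocytosis genes, with 12 above 0 and Fcgr2b, the inhibitory Fc receptor, furthest (log2 0.38, SE 0.162).

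The genes of lowest p in the other lists did not pass either. Tmem119, a microglial surface gene, was at 3.42 and 4.91 CPM in KO and 12.7 and 11.1 in het (log2 -1.55, SE 0.291), and Olfml3 of the same list at 8.03 and 10.3 in KO and 11.6 and 17.4 in het. The list as a whole had 5 of 12 genes above 0 and a median of -0.08. Cd74, the invariant chain of antigen presentation, was at 8.03 and 7.95 CPM in KO and 15.3 and 17.4 in het (log2 -1.03, SE 0.216), and the other tested genes of that list, Zbtb46 and H2-Ab1, were at -0.50 and -0.59. The adjusted p of all of these was 0.9999 in edgeR with Benjamini-Hochberg adjustment. Monocyte and inflammatory genes had a median of 0.12 with 9 of 13 above 0, and those of lowest p were Clec4e (log2 1.06), Tnf (-0.40), S100a4 (0.56) and S100a6 (0.42). Mitotic genes had a median of 0.11 with 11 of 14 above 0, and those of lowest p were Bub1 (0.30), Cdk1 (0.28), Mki67 (0.26) and Cdc20 (-0.26). Chemokine and growth factor partner genes had a median of -0.07 with 3 of 12 above 0, and those of lowest p were Flt3l (-0.39), Csf3r (-0.36), Kitl (0.26) and Cxcl12 (-0.46).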

How the data were processed

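Gene-by-cell UMI counts of 4 libraries were used as deposited; they were made with Cell Ranger 6.0.1 per the file headers, and mm10 and Seurat are named in the submitters' processing notes. Barcodes with at least 500 genes and at most 20% mitochondrial counts were kept. Doublets were removed with Scrublet scores at an expected rate of 0.1; the automatic threshold failed in KO 2 and het 1, and 0.323, the median of the other thresholds, was then used there, chosen after the scores were seen. Cells were clustered with scanpy 1.11.5 (2000 variable genes without the 9 members, 30 principal components, 20 neighbours, Leiden resolution 1). A cluster took the name of the marker list with the highest mean log2 excess of at least 1 where at least 3 of its markers were detected, at least 1 was among the 10 leading genes, no other list had more there, and cardiomyocyte markers took under 1% of UMIs (at least 5% for cardiomyocytes); 20 of 40 clusters were named. Shares of positive cells were set beside each other after thinning each cell to 2000 UMIs, and splits of cells at 10000 UMIs, that by Folr2 included, were added after seeing the data. Log2 differences and counts of genes in splits used sums with a small constant added to both sets.

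Counts summed per library and class were tested with edgeR 4.0.16 (quasi-likelihood, TMM, filterByExpr; R 4.3.3) with Benjamini-Hochberg adjustment at 0.05 over all genes; the share of cells had an exact permutation test. The labels give no separate embryos behind the replicates, so p-values measure only the spread between libraries, which may be technical. Alternatives were DESeq2 1.42.0, limma-voom (limma 3.58.1), no low-count filter, a replicate block, CPM without TMM, leaving out each library, doublets kept, a gate of at least 5 of 12 macrophage markers, other thinning depths and the unnamed second macrophage cluster added; some were chosen after seeing the data. The members and lists were chosen with earlier results of these data known. All members are named, with the 5 genes nearest in level for 4 of them, the 5 steadiest genes per split and direction, and the genes of lowest p per list. Likeness used the 6 classes of 50 or more cells per library. The count tests were tested on simulated data. Intervals and floors (3 counts) cover counting error only.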

Additional observations from a re-analysis of the deposited data

How the results depend on the processing

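Number of genes called in KO against het (edgeR quasi-likelihood, adjusted p under 0.05, 0 in each class as reported): without the low-count filter 69 in macrophage-like, 259 in endothelial-like, 32 in mesenchymal-like, 20 in epicardial-like and 114 in cardiomyocyte-like cells. With the replicate block the counts were 10, 371, 56, 63 and 232 in the same order of classes. Same-numbered libraries deviated together (correlations 0.382 to 0.582), but there are only 2 pairs and the labels do not say what a number shares, so the samples share only a number. DESeq2 called 41 in endothelial-like, 1 in mesenchymal-like and 3 in epicardial-like cells, and thinning to 2000 UMIs gave 2 in macrophage-like cells. Leaving out 1 library gave 0 to 56, 43 to 261, 0 to 51, 14 to 100 and 0 to 183 in the same order, with 56 in macrophage-like cells without KO 1 and 33 without het 1; a lone library is then assumed to vary like the other group. Of the 8 members, 2 were called without the filter and 0 to 2 with a library left out.

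The macrophage-like share, 0.440 points higher in KO as reported, was -0.115 over named clusters, -5.20 with the unnamed second cluster added, and -0.173 to 1.05 with a library left out. Of 102 alternatives for member differences in macrophage-like cells, 82 kept direction and call, 4 newly passed the test and 16 changed sign. Csf1r turned to 0.46 with the second cluster added (-0.19 to 0.12 with a library left out) and Cx3cr1 to 0.49 there and 0.061 at 2000 UMIs (-0.21 to 0.17). Timd4 was at 0.025 with the replicate block, 0.067 in the marker gate, 0.19 with the second cluster, 0.43 at 2000 UMIs and 0.00020 without TMM (-0.94 to 1.03), and Folr2 ran from -0.11 to 0.46 with a library left out and was at 0.63 with the second cluster. The differences in joint detection moved with depth: Mrc1 with Lyve1 from 25.7 points at 2000 UMIs to 13.8 unthinned and 10.98 at 10000; Folr2 with Lyve1 from 12.7 to 42.9 and 35.3; Timd4 with Folr2 from 6.29 to -2.01 at 1000 and 15.7 unthinned; Csf1r with Lyve1 from -14.4 to -1.21 unthinned and 1.67 at 10000; Cx3cr1 with Csf1r from 11.3 to 31.6 and -2.04. The causes were not tested. With 2 libraries a group, and Timd4, Ccr2 and Il34 at few UMIs, depth and replication limit each difference.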
